A study of Mus musculus with 48 samples.

Results

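The heat shock proteins of the mouse liver described here are Hsph1, Hspa8, Hsp90aa1, Hsp90ab1, Dnajb1, Dnaja1, Hspb1, Hspd1, Hspe1 and Serpinh1, taken by gene symbol on every probe set that carries that symbol alone. Of these 10 genes 9 were matched, with 23 probe sets among the 45037 probe sets tested. Hsp90ab1 was not analysed here. Despite the group's name, Serpinh1 encodes a chaperone of the endoplasmic reticulum rather than of the cytosol or the mitochondrion.

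Heat shock proteins bind unfolded or partly folded proteins, keep them from clumping and pass them on for folding, assembly or degradation. In the cytosol the Hsp70 proteins take up clients delivered by Hsp40 proteins, exchange their nucleotide with the help of Hsp110 proteins, and hand some clients to Hsp90. In the mitochondrion a barrel of Hspd1 with a lid of Hspe1 folds imported proteins, and in the endoplasmic reticulum Serpinh1 holds procollagen until it is exported. Many of these genes are raised by the heat shock factor HSF1, which binds inverted repeats of the bases GAA, and the liver expresses most of them at a high level without stress.

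The livers came from male C57BL/6J mice that were obtained at 6 to 7 weeks of age, housed for 2 weeks and then made obese by 10 weeks on a high-fat diet with a low protein to carbohydrate ratio (L-P/C-HF, of which fat gave 55%, carbohydrate 30% and protein 15% of the energy). The 48 mice with the highest glucose area in a tolerance test then either changed to a diet of high ratio (H-P/C-HF, of which fat gave 55%, carbohydrate 15% and protein 30% of the energy, HPHC in the labels) or stayed on L-P/C-HF (HFHC in the labels). They were killed under isoflurane 2 days (2-d) or 4 weeks (4-wk) later, 12 mice per diet and duration. The 4-wk mice were therefore also older and were killed on other days. They alone had a further glucose tolerance test, after an overnight fast, during the diet study. Whole liver RNA with an RNA integrity number above 7.5 was hybridised to Affymetrix arrays that cover the mouse genome, 1 array per mouse. All 4 groups carry the obesity of the first diet, and no lean or heat-stressed animals enter these comparisons.

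Array B25, of the H-P/C-HF 2-d group, was left out, a choice the methods of the study also made, so that the groups were H-P/C-HF 4-wk (12 mice), H-P/C-HF 2-d (11 mice), L-P/C-HF 4-wk (12 mice) and L-P/C-HF 2-d (12 mice). The median log2 signal of the arrays lay between 6.73 and 6.91. An RNA quality measure, the log2 signal at the 3' end minus that at the 5' end averaged over the Gapdh and the beta-actin controls, grows as RNA becomes less intact. It was 0.27 ± 0.11 in H-P/C-HF 4-wk livers and 0.24 ± 0.07 in L-P/C-HF 4-wk livers, and 0.48 ± 0.13 in H-P/C-HF 2-d livers and 0.48 ± 0.19 in L-P/C-HF 2-d livers (SD). The diets were thus close in this measure, and the durations were not. As whole liver was measured, fewer cells of a type and less RNA per cell cannot be told apart.

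The promoters are shown first, and of these members Hspd1 and Hspe1 share 1. Sequences are from RefSeq (GRCm38.p6), where 12 start sites of 7 of the 10 genes had an entry: Hsph1, Dnajb1, Dnaja1, Hspb1, Hspd1, Hspe1 and Serpinh1. In the 250 bases before each start, both strands were searched for a pair of facing repeats (GAANNTTC or TTCNNGAA) and for a run of 3 (GAANNTTCNNGAA or TTCNNGAANNTTC), the second of which contains the first. Each line gives 30 bases, 5′ to 3′ on the gene's own strand, with the matched letters in capitals.
Hspd1, chr1:55088053-55088082, minus strand: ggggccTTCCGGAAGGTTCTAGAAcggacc
Hspe1, chr1:55088053-55088082, plus strand: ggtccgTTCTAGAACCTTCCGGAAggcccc
Dnaja1, chr4:40722333-40722362, plus strand: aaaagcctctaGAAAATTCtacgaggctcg
Hspb1, chr5:135887791-135887820, plus strand: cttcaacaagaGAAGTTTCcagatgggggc
Hspb1, chr5:135887811-135887840, plus strand: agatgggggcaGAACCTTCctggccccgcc
Hsph1, chr5:149636351-149636380, minus strand: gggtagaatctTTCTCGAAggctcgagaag

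Hspd1 and Hspe1 lie head to head on chromosome 1, and the first pair of lines is the same stretch of DNA read on its opposite strands. The match ended 127 bases before 1 Hspd1 start and 72 bases before the Hspe1 start. The window of the other Hspd1 start, chr1:55088194-55088493, held no match, and the printed match lies after that start. A run of 3 repeats was found in 0.466% of the 32851 promoter windows of all genes. Among these members it was found in 1 window of Hspd1 and 1 of Hspe1 alone. A pair of repeats was found in 12.8% of all windows and in 6 of the 12 windows of these genes, in 5 of the 7 genes. The windows of Dnajb1 and Serpinh1 did not hold these letters, and neither did those of the other Dnaja1 starts. A match of letters is a description and not a measured binding site.

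The first question of the design was whether a higher protein to carbohydrate ratio changed these genes. After 4-wk, 0 of 23 heat shock protein probe sets passed (adjusted p under 0.05 over all probe sets, limma), as did 0 of 45037 probe sets of the array, a share of 0%. After 2-d, 0 of 23 passed, against 6 of 45037, a share of 0.0133%. The differences between diets were small, with a median of -0.01 at 4-wk and -0.05 at 2-d on the log2 scale, beside medians of -0.01 and 0.01 over all probe sets. The 95% confidence interval lay within 0.5 of 0 on the log2 scale for 21 of 23 probe sets at 4-wk and for 20 of 23 at 2-d. Without adjustment, p was under 0.05 for 1 probe set at 4-wk and 2 at 2-d, where the shares over the array were 2.76% and 3.52%.

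**Figure D1:**
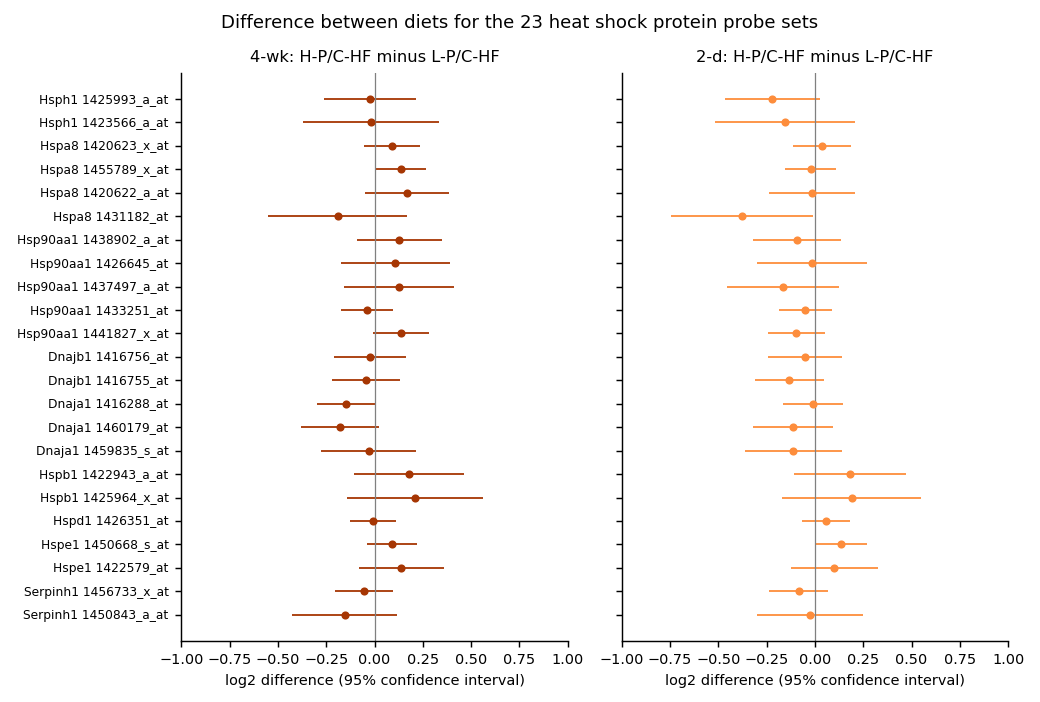
Difference between diets (the H-P/C-HF mean less that of L-P/C-HF, log2) with its 95% confidence interval for the 23 probe sets, after 4-wk on the left and after 2-d on the right. Every interval but 1 at 4-wk and 2 at 2-d crosses 0, and the widest belong to Hspa8 1431182_at, Hspb1 1425964_x_at and Hsph1 1423566_a_at.

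Hsph1 encodes the Hsp110 protein that resets Hsp70. Its brighter probe set, 1425993_a_at, had a lowest, median and highest value of 8.76, 9.135 and 9.95 in H-P/C-HF 4-wk livers, against 8.9, 9.235 and 9.47 in L-P/C-HF 4-wk livers. After 2-d the values were 8.72, 9.35 and 9.77 in H-P/C-HF livers, against 8.84, 9.53 and 10.18 in L-P/C-HF livers. The groups overlapped at both times, and at 2-d 8 of 11 mice on H-P/C-HF were under the median of those on L-P/C-HF. The difference was -0.03 at 4-wk (95% confidence interval -0.26 to 0.21) and -0.22 at 2-d (-0.46 to 0.02, p = 0.0754, adjusted p over 0.99).

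Hspa8 encodes the constitutive Hsp70 of the cytosol and has 4 probe sets. On the brightest, 1420623_x_at, means were 12.44 ± 0.18 in H-P/C-HF 4-wk livers and 12.35 ± 0.17 in L-P/C-HF 4-wk livers, and 12.50 ± 0.10 in H-P/C-HF 2-d livers and 12.46 ± 0.24 in L-P/C-HF 2-d livers (SD). The 2 probe sets of Hspa8 with an unadjusted p under 0.05 between diets, 1 at each time, ran opposite ways. Probe set 1455789_x_at had 12.16, 12.305 and 12.43 as its lowest, median and highest value in H-P/C-HF 4-wk livers, against 11.9, 12.185 and 12.38 in L-P/C-HF 4-wk livers, a difference of 0.14 (SE 0.06, p = 0.0383, adjusted p over 0.99). Probe set 1431182_at had 6.14, 6.65 and 7.29 in H-P/C-HF 2-d livers, against 6.6, 6.895 and 7.9 in L-P/C-HF 2-d livers, a difference of -0.38 (SE 0.18, p = 0.0443, adjusted p over 0.99). Both pairs of groups overlapped. Probe sets whose name ends in _x_at hold probes that also match other sequences, and Hspa8 has many processed copies in the genome, so these values are uncertain for the gene itself.

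Hsp90aa1, an Hsp90 of the cytosol that matures kinases and steroid receptors, has 5 probe sets. Its brightest, 1438902_a_at, averaged 11.68 ± 0.32 in H-P/C-HF 4-wk livers and 11.55 ± 0.27 in L-P/C-HF 4-wk livers, and 11.56 ± 0.24 in H-P/C-HF 2-d livers and 11.65 ± 0.28 in L-P/C-HF 2-d livers. The difference between diets was 0.13 at 4-wk (-0.09 to 0.35) and -0.09 at 2-d (-0.32 to 0.13). The dimmest, 1441827_x_at, had the only difference between the 2 diet effects with an unadjusted p under 0.05, at 0.23 (SE 0.10, p = 0.0286, adjusted p over 0.99), a probe set whose mean level of 4.65 lies under the median of every array. For the difference of diet effects, 0 of 23 passed, as did 0 of 45037 probe sets, a share of 0%, and the share with an unadjusted p under 0.05 was 1 of 23, against 1.63% over the array.

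Dnajb1 and Dnaja1 are Hsp40 proteins that deliver clients to Hsp70 and set off its ATPase. The brighter Dnajb1 probe set, 1416756_at, averaged 9.27 ± 0.23 in H-P/C-HF 4-wk livers and 9.29 ± 0.23 in L-P/C-HF 4-wk livers, and 9.02 ± 0.18 in H-P/C-HF 2-d livers and 9.07 ± 0.28 in L-P/C-HF 2-d livers. All 3 Dnaja1 probe sets had a negative difference between diets at both times, between -0.18 and -0.01, and 0 of 3 passed. The largest of these was that of 1460179_at at 4-wk, where 11 of 12 mice on H-P/C-HF were under the median of those on L-P/C-HF (-0.18, SE 0.10, p = 0.0809, adjusted p over 0.99). The brightest, 1416288_at, also had 11 of 12 under its L-P/C-HF median at 4-wk (-0.15, SE 0.08, p = 0.0579, adjusted p over 0.99). Probe set 1459835_s_at had 7 of 12 (-0.03, SE 0.12, p = 0.802, adjusted p over 0.99).

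Hspb1, a small heat shock protein that holds unfolded clients without ATP, had a positive difference between diets on both probe sets at both times. Probe set 1422943_a_at had a lowest, median and highest value of 10.35, 10.905 and 11.53 in H-P/C-HF 4-wk livers, against 9.81, 10.755 and 10.96 in L-P/C-HF 4-wk livers. After 2-d the values were 10.23, 10.78 and 11.5 in H-P/C-HF livers, against 9.78, 10.545 and 11.25 in L-P/C-HF livers. The differences of 0.18 at 4-wk (-0.11 to 0.46, p = 0.216) and 0.18 at 2-d (-0.11 to 0.47, p = 0.217) were smaller than the SD within any of the 4 groups, which was at least 0.31, and neither passed.

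Hspd1, the barrel subunit of the mitochondrial chaperonin, averaged 12.63 ± 0.07 in H-P/C-HF 4-wk livers and 12.64 ± 0.10 in L-P/C-HF 4-wk livers, and 12.55 ± 0.16 in H-P/C-HF 2-d livers and 12.49 ± 0.21 in L-P/C-HF 2-d livers (1426351_at). Its difference between diets was -0.01 at 4-wk (-0.13 to 0.11) and 0.06 at 2-d (-0.06 to 0.18). Hspe1, the lid, had 12.11, 12.27 and 12.46 as its lowest, median and highest value in H-P/C-HF 2-d livers, against 11.74, 12.115 and 12.5 in L-P/C-HF 2-d livers (1450668_s_at). There 10 of 11 mice on H-P/C-HF were over the median of those on L-P/C-HF, although the groups overlapped and the difference of 0.13 did not pass (SE 0.07, p = 0.0491, adjusted p over 0.99). The dimmer probe set of Hspe1, 1422579_at, varied more, with an SD of 0.20 in H-P/C-HF 4-wk and 0.30 in L-P/C-HF 4-wk livers, and of 0.20 in H-P/C-HF 2-d and 0.37 in L-P/C-HF 2-d livers, and its differences between diets were 0.14 at 4-wk (p = 0.210) and 0.10 at 2-d (p = 0.382).

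Serpinh1, the chaperone of collagen, did not differ between diets beyond its spread. Probe set 1450843_a_at averaged 6.71 ± 0.38 in H-P/C-HF 4-wk livers and 6.87 ± 0.37 in L-P/C-HF 4-wk livers, a difference of -0.16 (-0.42 to 0.11, adjusted p over 0.99). After 2-d it averaged 6.20 ± 0.28 in H-P/C-HF livers and 6.22 ± 0.34 in L-P/C-HF livers, a difference of -0.03 (-0.30 to 0.25, adjusted p over 0.99). The brighter probe set, 1456733_x_at, differed by -0.05 at 4-wk (-0.20 to 0.09) and by -0.08 at 2-d (-0.24 to 0.07), also with an adjusted p over 0.99.

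The second comparison the design allows is that between durations within a diet. In H-P/C-HF livers 2 of 23 heat shock protein probe sets passed, both higher at 4-wk than at 2-d, where 3012 of 45037 probe sets passed, a share of 6.69% (4.71% higher and 1.98% lower). In L-P/C-HF livers 3 of 23 passed, 2 higher and 1 lower, where 3096 of 45037 passed, a share of 6.87% (5.39% higher and 1.49% lower). The counts for these members are therefore near the background. The same Hsp90aa1 and Serpinh1 probe sets passed in both diets, and the median of the 23 changes was 0.10 in H-P/C-HF and 0.06 in L-P/C-HF livers, beside -0.02 and -0.003 over all probe sets.

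Hsp90aa1 probe set 1426645_at had a lowest, median and highest value of 10.47, 11.15 and 11.64 in H-P/C-HF 4-wk livers, against 9.96, 10.54 and 11.05 in H-P/C-HF 2-d livers. In L-P/C-HF livers the values were 10.61, 10.945 and 11.42 at 4-wk, against 9.97, 10.6 and 11.2 at 2-d. The groups overlapped, but 10 of 12 and 12 of 12 of the 4-wk mice lay above the 2-d median of their diet. The probe set rose by 0.59 in H-P/C-HF livers (SE 0.14, 1.51-fold, adjusted p = 0.00495) and by 0.47 in L-P/C-HF livers (SE 0.14, 1.39-fold, adjusted p = 0.0278). The other 4 probe sets of Hsp90aa1 did not pass, and the brightest changed by 0.12 (-0.10 to 0.35) in H-P/C-HF and by -0.10 (-0.32 to 0.12) in L-P/C-HF livers, so that the gene's probe sets disagree. The rises in the 2 diets did not pass as different (0.12, -0.28 to 0.52, p = 0.541, adjusted p over 0.99). In L-P/C-HF livers the call was lost when any 1 of 8 mice was left out (2-d replicates 1, 2, 6, 10 and 11 and 4-wk replicates 2, 7 and 8), with an adjusted p between 0.0511 and 0.0672.

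Serpinh1 is known in liver mainly from cells that make collagen. Its probe set 1450843_a_at had a lowest, median and highest value of 6.17, 6.6 and 7.26 in H-P/C-HF 4-wk livers, against 5.87, 6.19 and 6.76 in H-P/C-HF 2-d livers. In L-P/C-HF livers the values were 6.14, 6.78 and 7.49 at 4-wk, against 5.68, 6.17 and 6.88 at 2-d. In each diet 11 of 12 of the 4-wk mice lay above the 2-d median, and the groups overlapped. The probe set rose by 0.51 in H-P/C-HF livers (SE 0.14, 1.43-fold, adjusted p = 0.0128) and by 0.64 in L-P/C-HF livers (SE 0.13, 1.56-fold, adjusted p = 0.00103), and both calls held when any 1 mouse was left out. Between the diets these rises did not pass as different (-0.13, -0.52 to 0.26, p = 0.502, adjusted p over 0.99). The brighter probe set of the gene, 1456733_x_at, did not pass, with changes of 0.07 (-0.08 to 0.23) and 0.04 (-0.11 to 0.19). Probe set 1450843_a_at is dim, with a mean level of 6.51 that lies under the median of every array. The probe sets of this gene thus disagree, and the rise rests on the dimmer of them.

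Genes of collagen were examined beside Serpinh1. Of 19 measured genes of collagen chains and their processing, 5 rose and 1 fell in H-P/C-HF livers and 6 rose and 0 fell in L-P/C-HF livers, among them Col14a1 (0.58 and 0.68) and Col3a1 (0.60 and 0.52), and the median change of the 19 was 0.08 in each diet. Over all genes 4.16% rose and 1.87% fell in H-P/C-HF livers, and 4.76% rose and 1.25% fell in L-P/C-HF livers. Markers of stellate cells, the main collagen makers of the liver, passed as higher for 4 of 9 genes in H-P/C-HF and 5 of 9 in L-P/C-HF livers, and 0 passed as lower. These markers include the collagen genes Col1a1, Col1a2 and Col3a1, so the collagen and stellate lists share genes. Col3a1 in each diet, and Col1a2 in L-P/C-HF livers, are counted as risen in both lists. The mean log2 level of the 9 markers lay between 8.50 and 8.81 in H-P/C-HF 4-wk livers, against 8.19 and 8.59 in H-P/C-HF 2-d livers. It lay between 8.63 and 8.95 in L-P/C-HF 4-wk livers, against 8.25 and 8.74 in L-P/C-HF 2-d livers. Kupffer cell markers passed as higher for 8 of 10 and 10 of 10 genes, and sinusoidal endothelial markers for 6 of 6 and 5 of 6 genes. With the RNA quality measure as a covariate, 4 of these 6 collagen genes and all 4 stellate markers still passed in H-P/C-HF livers, and 1 of the 6 and 3 of the 5 in L-P/C-HF livers. The part of these cell types in the Serpinh1 change was not tested.

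Hspa8 was the only member with a fall that passed, among the 23 probe sets. Probe set 1455789_x_at had a lowest, median and highest value of 11.9, 12.185 and 12.38 in L-P/C-HF 4-wk livers, against 12.03, 12.505 and 12.7 in L-P/C-HF 2-d livers. All 12 mice at 4-wk lay below the 2-d median, although the groups overlapped, and the probe set fell by 0.26 on the log2 scale (SE 0.06, adjusted p = 0.00569). In H-P/C-HF livers its change was -0.10 (SE 0.07, adjusted p = 0.429), and the changes in the 2 diets did not pass as different (0.16, -0.03 to 0.34, p = 0.0907, adjusted p over 0.99). The other 3 Hspa8 probe sets did not pass in either diet, with changes between -0.27 and 0.36.

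**Figure D2:**
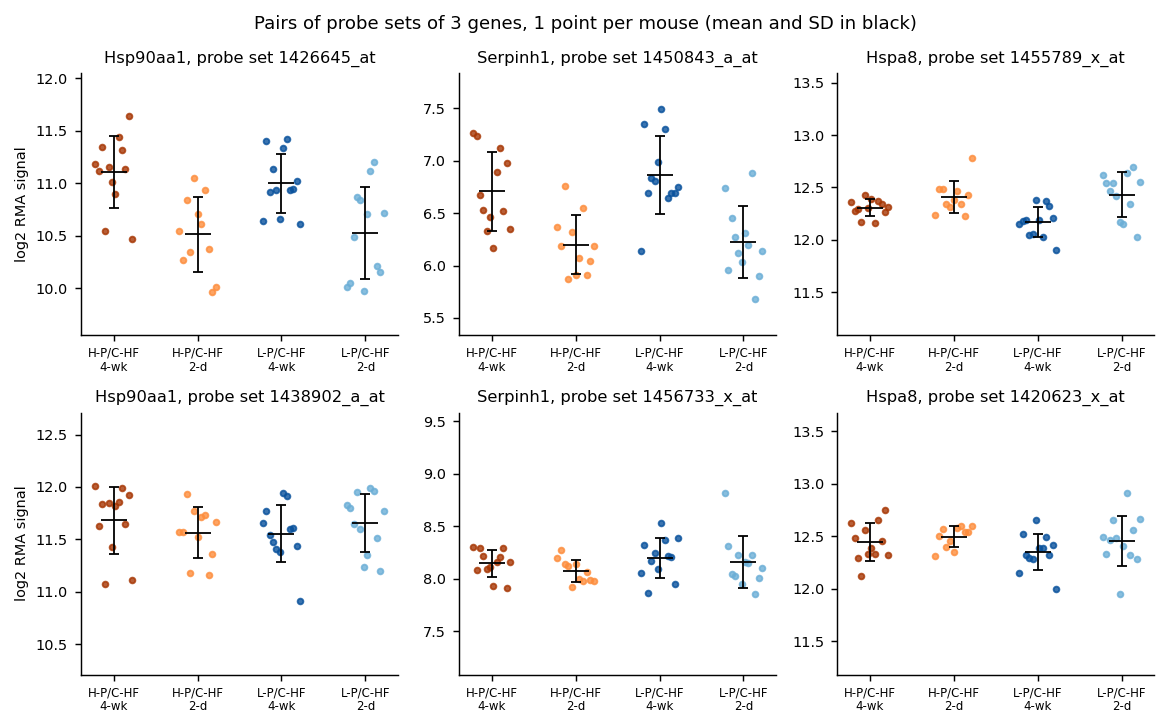
Log2 RMA signal of each mouse (points) with mean and SD (black) in the 4 groups, for the 3 probe sets that passed between durations (top row) and the brightest probe set of the same gene (bottom row). All panels span the same width on the log2 scale. Hsp90aa1 1426645_at and Serpinh1 1450843_a_at are higher at 4-wk than at 2-d in both diets, whereas the brightest probe set of each of the 3 genes did not pass in either diet.

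The rest of the members did not pass between durations. The changes with the lowest p were those of Dnajb1 1416756_at, at 0.24 in H-P/C-HF (SE 0.10, adjusted p = 0.129) and 0.22 in L-P/C-HF livers (SE 0.09, adjusted p = 0.192), of Hspd1 at 0.14 in L-P/C-HF livers (SE 0.06, adjusted p = 0.173) and of Hsph1 1425993_a_at at -0.27 in L-P/C-HF livers (SE 0.12, adjusted p = 0.191). In the last of these, all 12 mice at 4-wk lay below the 2-d median. In each comparison between diets or between durations, the groups overlapped for all 23 probe sets. How often groups overlap over all probe sets was not computed.

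The level of several members moved with the RNA quality measure within groups, a relation examined after the data were seen. The test was run on these members alone, and the share over all probe sets was not computed. Whether the relation is particular to these members was therefore not tested. Over 47 mice with group means subtracted, 9 of 23 probe sets passed (permutation of mice within groups, 100000 resamples, Benjamini-Hochberg over 23), 8 of them with a lower level where the 3' minus 5' signal was larger. Hspd1 had r = -0.75 and rho = -0.70 (p = 1e-05 for both, the smallest these resamples can give; r = -0.70 without the 2 mice farthest in the measure). Dnajb1 1416756_at had r = -0.72 and rho = -0.69, Hsph1 1423566_a_at r = -0.65 and rho = -0.67, and Hsp90aa1 1426645_at r = -0.65 and rho = -0.67 (p = 2e-05 or lower for all). Within each of the 4 groups r was negative for all 4, between -0.34 and -0.91. Serpinh1 1450843_a_at, by contrast, had r = -0.09 (p = 0.561) and rho = -0.23 (p = 0.136). Hspa8 1455789_x_at was the probe set that passed with a positive r, of 0.43 (p = 0.0113) and rho = 0.45 (p = 0.00299), which was 0.29 without the 2 farthest mice.

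**Figure D3:**
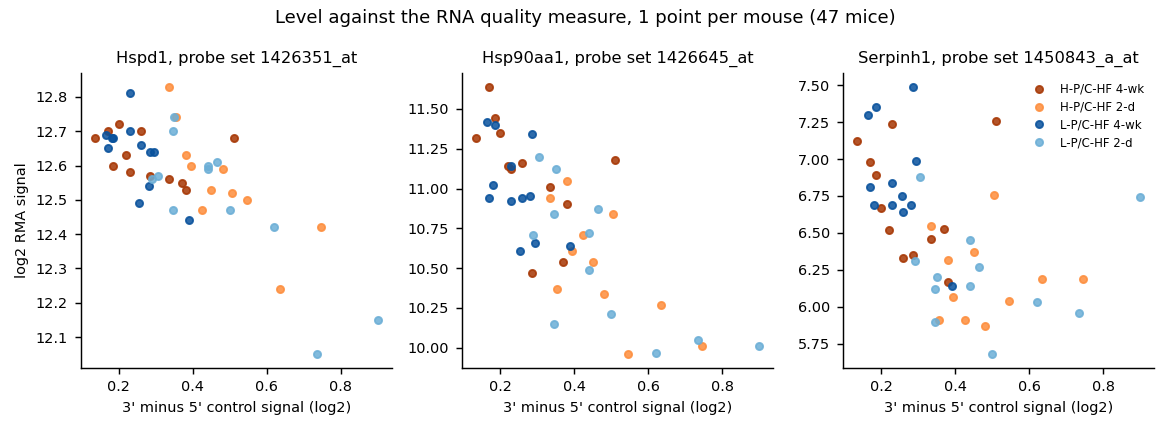
Log2 RMA signal of Hspd1, Hsp90aa1 1426645_at and Serpinh1 1450843_a_at (vertical axes) against the 3' minus 5' control signal (horizontal axes, log2), 1 point per mouse in 4 colours for the groups. The 2-d mice reach 0.9 and the 4-wk mice stay at or below 0.51, and the first pair of panels slopes down within groups as well as between them.

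The RNA quality measure itself differed between durations, so duration, age, day of death and RNA quality cannot be told apart. With this measure as a covariate, 0 of 23 probe sets passed between durations in either diet. Over the array 622 of 45037 passed in H-P/C-HF and 464 in L-P/C-HF livers. The change of Hsp90aa1 1426645_at was then 0.22 in H-P/C-HF (SE 0.13, adjusted p = 0.637) and 0.05 in L-P/C-HF livers (SE 0.13, adjusted p = 0.994). That of Serpinh1 1450843_a_at moved less, to 0.46 (SE 0.16, adjusted p = 0.179) and 0.59 (SE 0.16, adjusted p = 0.0651). That of Hspa8 1455789_x_at in L-P/C-HF livers was -0.14 (SE 0.07, adjusted p = 0.678). Of 23 probe sets, 10 changed sign in each diet, among them Hspd1 and Dnajb1 1416756_at, and 10 in H-P/C-HF and 6 in L-P/C-HF livers were then higher at 4-wk, against 18 and 16 without the covariate. The SE was wider with the covariate for 18 of 23 probe sets in H-P/C-HF and 19 of 23 in L-P/C-HF livers, and narrower for the other 5 and 4. The medians of the diet differences hardly moved at 2-d, where the diets were close in the measure (-0.05 with and without it), and were 0.05 with it against -0.01 without it at 4-wk.

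**Figure D4:**
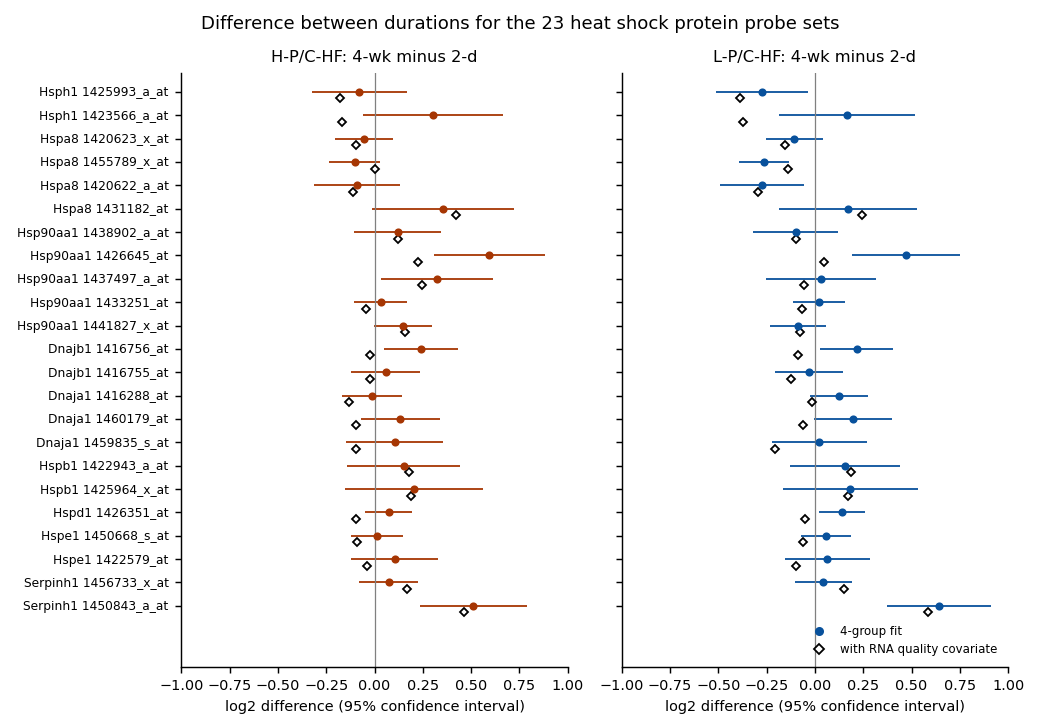
Difference between durations (4-wk minus 2-d, log2) for the 23 probe sets in H-P/C-HF livers on the left and L-P/C-HF livers on the right, with 95% confidence intervals (filled circles) and the value with the RNA quality covariate (open diamonds). Hsp90aa1 1426645_at and Serpinh1 1450843_a_at stand to the right of 0 in both panels without the covariate, and the diamond of Serpinh1 stays near its circle at 0.46 and 0.59.

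Members also varied together between mice of the same group. On the brightest probe set of each of the 9 genes, with group means subtracted, 19 of 36 pairs passed over 47 mice (permutation of mice within groups, 100000 resamples, Benjamini-Hochberg over 36), all 19 with a positive r, and the median r of the 36 was 0.39. By Spearman's rho 18 passed. The share that would pass among pairs of other genes on these arrays was not computed. Whether such covariation is particular to these members was therefore not tested. Hspa8 passed with 7 of its 8 partners, Hsph1 and Hspe1 with 6 each, Dnajb1 and Dnaja1 with 5 each, Hspd1 with 4, Hsp90aa1 with 3 and Hspb1 with 2. Serpinh1, here on 1456733_x_at, passed with 0 of 8, and its r with Hspd1 was -0.37 (p = 0.0309, adjusted p = 0.0529).

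The barrel and the lid of the mitochondrial chaperonin, whose shared promoter is printed above, had r = 0.68 (p = 1e-05, adjusted p = 9e-05) and rho = 0.81 (p = 1e-05), and r = 0.71 without the 2 mice farthest in Hspd1. Their r was positive within each of the 4 groups, between 0.62 and 0.86, and 0.61 with the RNA quality measure removed. The part of the shared promoter in this correlation was not tested. The 2 Hsp40 members, Dnajb1 and Dnaja1, had r = 0.69 (p = 1e-05, adjusted p = 9e-05) and rho = 0.60 (p = 6e-05), and r = 0.65 without the 2 farthest mice. Hspa8 and Hspe1, of different compartments, were as close at r = 0.69 (p = 4e-05, adjusted p = 0.000206) and rho = 0.55 (p = 0.00021), and r = 0.56 without the 2 farthest mice. Hsph1 and its partner Hspa8 had r = 0.65 (p = 1e-05, adjusted p = 9e-05) and rho = 0.64 (p = 2e-05), and r = 0.71 without the 2 farthest mice.

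The pair of Dnajb1 with Hspd1 had a lower r with the RNA quality measure removed, with r = 0.65 (p = 1e-05, adjusted p = 9e-05) and rho = 0.65 (p = 1e-05) but r = 0.25 (adjusted p = 0.148) once it was removed. The count of pairs that passed was 19 with it removed as well, but the pairs were not all the same. Besides Dnajb1 with Hspd1, Dnaja1 with Hspe1 no longer passed (adjusted p = 0.165). Dnajb1 with Hspb1 (adjusted p = 0.0114) and with Hsp90aa1 (adjusted p = 0.039) then passed. Within single groups of 11 or 12 mice, 6 pairs passed in H-P/C-HF 4-wk, 1 in H-P/C-HF 2-d, 0 in L-P/C-HF 4-wk and 2 in L-P/C-HF 2-d livers, with a median r between 0.29 and 0.49.

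**Figure D5:**
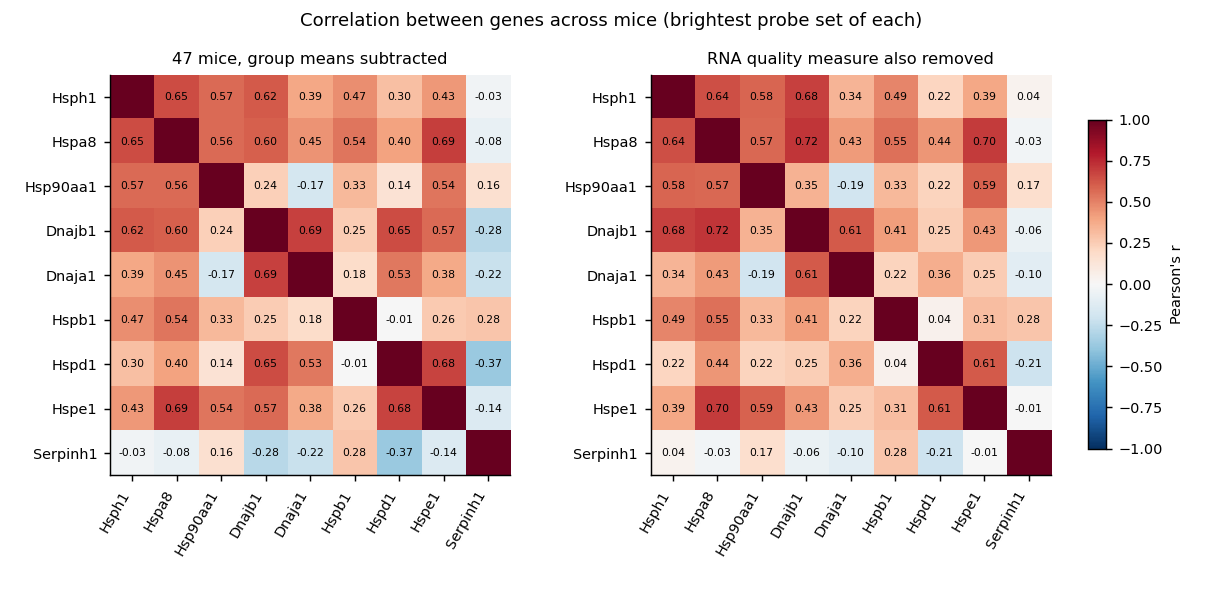
Pearson's r between the 9 genes over 47 mice with group means subtracted (left) and with the RNA quality measure removed as well (right), from -1 in blue to 1 in red. The row of Hspa8 is red except at Serpinh1, the row of Serpinh1 is the palest, and the Dnajb1 with Hspd1 square pales to 0.25 on the right.

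Some mice held the highest or lowest value of their group for many members at once. Replicate 11 of the H-P/C-HF 4-wk group had its group's highest value in 13 of 23 probe sets, and replicate 8 of the L-P/C-HF 2-d group in 11. Replicate 6 of the L-P/C-HF 2-d group had its group's lowest value in 12 of 23, and replicates 1 and 12 of the L-P/C-HF 4-wk group in 9 each. Such counts were made on these members alone, and the share over all probe sets was not computed. Whether they are particular to these members was therefore not tested. The arrays of H-P/C-HF 4-wk replicate 11, L-P/C-HF 2-d replicate 6 and L-P/C-HF 4-wk replicate 12 also had low median correlations with the other arrays over all probe sets (0.984, 0.983 and 0.980, where the arrays ranged between 0.978 and 0.991). Without these 3 mice, a choice made after the data were seen, 14 of the 36 pairs of members passed, with a median r of 0.29. Probe sets of 1 gene share their RNA, and of the 24 pairs of probe sets of the same gene 22 passed, with r between 0.32 for Hsp90aa1 1433251_at with 1441827_x_at and 0.97 for the Hspb1 pair. The pairs of Hsp90aa1 1433251_at with 1437497_a_at (r = 0.27) and with 1438902_a_at (r = 0.08) did not pass.

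As a description, the genes outside the members whose brightest probe set was most like that of 3 members over the 47 mice, among 18184 genes, were the following. For Hsph1 they were Apba3, Pagr1a, 2410004B18Rik, Tspan14 and B3galnt2, with r between 0.82 and 0.84. For Hspd1 they were Prelid1, Fbxo3, Rac1, Ssu72 and Atp5b, with r between 0.85 and 0.89. For Serpinh1 they were C1qtnf2, Ttc28, Pclaf, Btbd9 and Lpcat1, with r between 0.58 and 0.61. Mice share their RNA quality across genes, which was not removed here.

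A related gene outside the members is Hspa1b, an Hsp70 that is switched on by stress. On its brightest probe set, 1452318_a_at, the lowest, median and highest values were 7.7, 8.75 and 9.25 in H-P/C-HF 2-d livers, against 8.5, 9.18 and 9.78 in L-P/C-HF 2-d livers. The groups overlapped, with 10 of 11 mice on H-P/C-HF under the median of those on L-P/C-HF, and the difference of -0.60 (SE 0.16, p = 0.000518) did not pass (adjusted p = 0.497). Probe sets 1427126_at and 1427127_x_at differed by -0.66 and -0.63, also with no adjusted p under 0.05, and after 4-wk the differences of the 3 probe sets lay between -0.06 and -0.02. Between durations in H-P/C-HF livers 1427126_at rose by 0.83 (SE 0.20, adjusted p = 0.00543) and 1427127_x_at by 0.73 (SE 0.19, adjusted p = 0.0128), and 1452318_a_at did not pass (0.38, SE 0.16, adjusted p = 0.163). In L-P/C-HF livers 0 of the 3 passed. The part of RNA quality in the Hspa1b changes between durations was not tested. Hspa1b has a near-identical copy, Hspa1a, so these signals may hold both.

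Among 105 measured genes of 8 lists of other chaperones and of factors that work with or regulate them, taken on their brightest probe set, 0 passed between diets at 4-wk, against 0% of all genes, and 0 at 2-d, against 0.0165%. Between durations 3 rose and 3 fell in H-P/C-HF livers and 1 rose and 4 fell in L-P/C-HF livers, where 1098 and 1093 of 18193 genes passed, shares of 6.04% and 6.01%. The lists of other Hsp70 and Hsp110 genes (10 measured), cochaperones (20) and heat shock factors with their regulators (5) had 0 that passed in either diet. Of the small heat shock proteins, Hspb8 fell by 0.41 in H-P/C-HF (SE 0.10, adjusted p = 0.00488) and by 0.46 in L-P/C-HF livers (SE 0.10, adjusted p = 0.0011), and all 12 mice at 4-wk lay below the 2-d median in both diets. Hspb6 rose by 0.25 in H-P/C-HF livers (adjusted p = 0.00735). With the RNA quality covariate Hspb6 in H-P/C-HF livers (0.30, adjusted p = 0.0202) and Hspb8 in L-P/C-HF livers (-0.44, adjusted p = 0.0424) still passed, and Hspb8 in H-P/C-HF livers did not (-0.40, adjusted p = 0.0666).

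In the mitochondrial list Grpel2, a nucleotide exchanger of the mitochondrial Hsp70, rose by 0.32 in H-P/C-HF (adjusted p = 0.0148) and by 0.28 in L-P/C-HF livers (adjusted p = 0.0324), the second of which held in 37 of 47 fits that each left out 1 mouse. Timm44, which tethers that Hsp70 to the import channel, fell by 0.24 (adjusted p = 0.00558) and by 0.21 (adjusted p = 0.0172). Cct5, a subunit of the cytosolic chaperonin, rose by 0.31 in H-P/C-HF livers (adjusted p = 0.0118). Dnajb14, an Hsp40 of the endoplasmic reticulum membrane, fell by 0.33 in L-P/C-HF livers (adjusted p = 0.04), which held in 33 of the 47 fits. Xbp1, a transcription factor of the unfolded protein response, fell by 0.24 in H-P/C-HF (adjusted p = 0.0203) and by 0.30 in L-P/C-HF livers (adjusted p = 0.002), the first of which was lost without H-P/C-HF 4-wk replicate 10 (adjusted p = 0.0514). None of the changes of Grpel2, Timm44, Cct5, Dnajb14 and Xbp1 passed with the RNA quality covariate. That of Xbp1 kept its size, at -0.23 (adjusted p = 0.167) and -0.29 (adjusted p = 0.06), and that of Cct5 was 0.10 (adjusted p = 0.771).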

How the data were processed

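Liver RNA of 48 mice was measured on 48 arrays, and the labels give 4 groups of 12. The authors deposited log2 values per probe set with 2 decimals, normalised by Robust Multichip Average (RMA, version not given in the sources used here), which corrects background, equalises the arrays and summarises probes. Probe set names came from GEO's platform annotation, in which 34945 of the 45037 probe sets tested had 1 symbol, 932 several and 9160 none; 64 control probe sets were left out. Here limma 3.58.1 (R 4.3.3) fitted 1 coefficient per group over 47 arrays, with eBayes and a trend; tests were two-sided, with Benjamini-Hochberg adjustment over all probe sets and a threshold of 0.05. The methods of the study used one-way ANOVA with a global error assessment, and plain ANOVA was an alternative. The 18193 genes of list counts were taken on the probe set with the highest mean. Correlations used numpy 2.4.6. The main limma fit was checked on simulated data for the diet effect at 2-d, and the permutation test on simulated pairs. The alternative fits were not checked in this way. Members and gene lists were chosen with earlier results of these data known; named list genes are up to 4 per list with the smallest p. Nothing marks replicates other than separate mice, and their number limits the precision.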

Additional observations from a re-analysis of the deposited data

How the results depend on the processing

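The counts of heat shock protein probe sets that passed between diets, and for the difference of diet effects, were 0 under all of the alternatives: B25 included, 3 further arrays (A01, A09, A24) dropped, array weights, median centring, cyclic loess, a mean level above 6, separate fits, no trend, the RNA quality covariate, the replicate block, ANOVA and each mouse left out. Between durations in H-P/C-HF livers the count of 2 was 0 with the RNA quality covariate, and 1 gene passed by the mean of its probe sets (Serpinh1) against 2 by single probe sets. In L-P/C-HF livers the count of 3 was 6 by cyclic loess, which added Hsph1 1425993_a_at and Hspa8 1420623_x_at and 1420622_a_at, 0 with the RNA quality covariate, 1 by ANOVA, and 1 gene against 3 by the mean of probe sets. Leaving out 1 mouse at a time gave 0 to 0 for each diet comparison and for their difference, 2 to 2 in H-P/C-HF and 2 to 3 in L-P/C-HF livers. The sign turned with the RNA quality covariate for Dnajb1 1416756_at (-0.0229 in H-P/C-HF and -0.0894 in L-P/C-HF livers) and for Hspd1 (-0.0532 in L-P/C-HF livers), and the cause was not tested. Of 36 pairs of members, 19 were correlated over 47 mice, and 6, 0, 1 and 2 within H-P/C-HF 4-wk, L-P/C-HF 4-wk, H-P/C-HF 2-d and L-P/C-HF 2-d mice, with fewer mice in each. Replicate numbers did not pair the mice (mean r = -0.02 over 69 same-numbered pairs, 0.002 over the others), and with the replicate block 3 probe sets passed in each diet between durations, adding Dnajb1 1416756_at in H-P/C-HF livers (adjusted p = 0.0286). Hsp90aa1 1441827_x_at and 1433251_at, with means of 4.65 and 5.95, were not tested under the minimum mean level of 6.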

Other observations

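A list of chaperones of the endoplasmic reticulum and genes of the unfolded protein response, among them the transcription factors Xbp1 and Ddit3, had a lower mean after H-P/C-HF, relative to L-P/C-HF, for 19 of 19 measured genes at 4-wk and for 18 of 19 at 2-d. The median log2 difference was -0.13 at 4-wk and -0.17 at 2-d, beside -0.02 and 0.01 over all genes, and 0 of 19 passed at either time. These genes were measured in the same mice, so their signs are not independent of each other. The share of all genes with a lower mean was not computed. The mean level of the list in L-P/C-HF 2-d replicate 9 was 11.99, against 11.22 in the next highest mouse of that group. Without this mouse, a choice made after the data were seen, 17 of 19 genes had a lower mean after 2-d on H-P/C-HF and the median difference was -0.08. Creld2 had -0.48 (p = 0.049) and Dnajc3 -0.26 (p = 0.0184) at 2-d, both with an adjusted p over 0.99.

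Immediate early genes, which a cell switches on within minutes of a stimulus, fell between durations for 8 of 15 measured genes in H-P/C-HF and 9 of 15 in L-P/C-HF livers, and 0 rose in either, where 1.87% and 1.25% of all genes fell. The log2 change in H-P/C-HF and in L-P/C-HF livers was -1.54 and -1.53 for Egr1 and -1.40 and -1.11 for Jun. With the RNA quality covariate 5 of the 8 and 4 of the 9 still passed, and the changes were -1.13 and -1.06 for Egr1, neither of which passed, and -1.37 and -1.07 for Jun, of which the first passed (adjusted p = 0.0034 and 0.0505).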
